A study of Mus musculus with 3 samples.

Results

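The satellite cell and myogenic genes described here are *Pax7*, *Myf5*, *Myf6*, *Myod1*, *Myog*, *Mymk*, *Cdh15*, *Calcr*, *Chodl* and *Des*, 10 of the 33696 genes counted in tdTomato-sorted single cells of the mouse larynx. They were chosen by name, and the cells that carry them were chosen by detection. A satellite-gene cell was any cell in which at least 2 of 5 selection genes, *Pax7*, *Myf5*, *Chodl*, *Cdh15* and *Calcr*, had at least 1 unique molecule (UMI). By this rule 3123 of 44542 cells that passed the quality limits were satellite-gene cells, and the remaining 41419 are called other cells. The animals were Lrig1CreERT2/+; ROSA26 CAG-LSL-tdTomato/+ mice, in which tamoxifen lets a Cre recombinase made from the *Lrig1* locus switch on a red fluorescent reporter, and the label is kept whether or not a cell goes on making *Lrig1*. Tamoxifen was given on 2 consecutive days and larynges were taken 24 h after recombination, so the sort collects cells labelled shortly before. Each of the 3 libraries came from 10 pooled larynges, 5 of males and 5 of females, and no age is given in the labels. Sort gates were set with wild-type and reporter-only mice, whose cells are not analysed here, and all 3 libraries are of the same kind, so every comparison is between cells within libraries. Because animals were pooled, n = 3 counts pools. Both cell groups of a comparison come from the same 3 pools. A p-value without the library as a block measures the spread between pools and leaves this pairing out. With the block it measures the spread of the differences within pools.

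Satellite cells are the stem cells of skeletal muscle, and the larynx holds many small striated muscles that move the vocal folds. In textbook order, the paired-box factor *Pax7* marks the resting satellite cell, the basic helix-loop-helix factors *Myf5* and *Myod1* commit it to the muscle lineage, and *Myog* and then *Mymk* accompany differentiation and the fusion of myoblasts into fibres. *Calcr*, the calcitonin receptor, helps keep satellite cells at rest, *Cdh15* (M-cadherin) is an adhesion protein between satellite cell and fibre, and *Des* (desmin) is the intermediate filament of muscle. *Myf6* (Mrf4) is the fourth myogenic helix-loop-helix factor and is known from late differentiation and fibres, and *Chodl* (chondrolectin) is a membrane lectin.

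The 10 genes lie apart on the genome except for *Myf5* and *Myf6*, which are neighbours on the minus strand of chromosome 10. In the GRCm39 build with GENCODE vM39 annotation, *Pax7* spans chr4:139464373-139560839 on the minus strand in 9 exons of its canonical transcript, *Myf5* chr10:107318769-107321995 in 3, and *Myf6* chr10:107328712-107330656 in 3. *Myod1* spans chr7:46025870-46028526 on the plus strand in 3 exons, *Myog* chr1:134217707-134220287 on the plus strand in 3, and *Mymk* chr2:26951627-26962228 on the minus strand in 5. *Cdh15* spans chr8:123574705-123596048 on the plus strand in 14 exons, *Calcr* chr6:3685680-3764714 on the minus strand in 15, *Chodl* chr16:78727732-78748624 on the plus strand in 6, and *Des* chr1:75320511-75345223 on the plus strand in 9. *Mymk*, *Calcr* and *Des* overlap a counted gene on the opposite strand, which are *Adamtsl2*, *Gm33576* and *Gm15179*, and whether the counting used strand is not given in the sources used here.

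The 250 bases before the start of the canonical transcript are shown for 3 genes that stand for the order from commitment to fusion, since myogenic helix-loop-helix factors bind the E-box, CANNTG. Each run is 5′ to 3′ on the gene's own strand, and capitals mark every CANNTG, a motif whose complement has the same form. The windows are chr7:46025620-46025869 for *Myod1*, chr1:134217457-134217706 for *Myog* and chr2:26962229-26962478 for *Mymk*.
Myod1: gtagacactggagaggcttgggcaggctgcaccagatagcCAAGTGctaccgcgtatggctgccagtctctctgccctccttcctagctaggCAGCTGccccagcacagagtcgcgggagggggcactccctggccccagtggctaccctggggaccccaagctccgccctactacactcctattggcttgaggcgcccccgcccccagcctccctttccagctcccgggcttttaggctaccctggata
Myog: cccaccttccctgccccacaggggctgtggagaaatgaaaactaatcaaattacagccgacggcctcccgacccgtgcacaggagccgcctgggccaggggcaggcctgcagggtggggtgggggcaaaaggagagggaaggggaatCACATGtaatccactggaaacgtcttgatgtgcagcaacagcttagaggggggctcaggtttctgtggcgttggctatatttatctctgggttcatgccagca
Mymk: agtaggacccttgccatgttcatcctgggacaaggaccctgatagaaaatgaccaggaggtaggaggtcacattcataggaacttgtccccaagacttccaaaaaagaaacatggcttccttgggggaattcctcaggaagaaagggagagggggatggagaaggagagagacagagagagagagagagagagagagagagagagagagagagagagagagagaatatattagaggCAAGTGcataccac
The *Myod1* window held 2 E-boxes, CAAGTG and CAGCTG, and the *Myog* and *Mymk* windows 1 each, CACATG and CAAGTG. Such a match is common and is a description of letters only, since 64.8% of the 21431 windows of this length in the annotation held a CANNTG, and 11.8% held CAGCTG.

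The libraries held 18068, 10816 and 31646 barcodes, of which 13222, 7201 and 24119 passed, with 147898790 to 413632222 UMIs over all barcodes. Satellite-gene cells were 869, 749 and 1505 of these, or 6.57%, 10.4% and 6.24% (mean 7.74% ± 2.31, SD, n = 3, and 14.5% with the quality limits as the study's methods word them), with median UMI counts of 7413, 8612 and 5902 against 11211, 15608 and 11210 in other cells. All 8 genes of the muscle satellite marker list were detected and summed to 3292, 3022 and 3382 parts per 1000000 UMIs (CPM) in satellite-gene cells, a description since 5 of the 8 chose the cells. *Itga7*, a laminin receptor chain of the list that did not choose them, stood at 32.8, 27.1 and 46.1 CPM against 1.14, 0.454 and 0.590 CPM in other cells. Of the 3123 cells, 2728 (87.4%) fell in 2 of 29 clusters, numbered 8 and 9, that carry the name Muscle satellite-like from that list. Another 302 lay in cluster 28, which was left unnamed and took 3887 cells from library 3 and 1 from library 1. In those 302 cells *Pax7* had a UMI in 40.4%, *Myod1* in 1.99% and *Des* in 3.64%, while *Krt5*, a keratin of basal epithelium, had one in 100% at 1373 CPM. Without this cluster the muscle satellite list summed to 4028 CPM in library 3. Shares and levels of the selection genes, *Des*, *Myod1* and *Myf6* in satellite-gene cells of library 3 are also given without it. Levels within the *Myod1* and *Lrig1* splits include it unless said otherwise. Library 2 stood apart in another way, with *Fos* at 256, 5447 and 268 CPM in the satellite-gene cells of libraries 1, 2 and 3 and at 111, 218 and 74.7 CPM in other cells. Pairs of libraries shared 46, 165 and 96 cell barcodes, of which 24, 119 and 67 were within the quality limits.

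The 5 selection genes were found together, and each was found in at most 4.99% of the other cells of a library. Some clusters of other cells held *Pax7* or *Chodl* more often, as given below. *Pax7* had a UMI in 86.1%, 89.7% and 82.3% of satellite-gene cells (mean 86.02% ± 3.73) and in 4.11%, 4.36% and 4.99% of other cells. *Myf5* had one in 88.7%, 86.2% and 83.0% against 0.389%, 0.403% and 2.20%, and *Chodl* in 95.6%, 91.5% and 89.0% against 1.49%, 1.04% and 3.34%. *Calcr* followed at 57.1%, 55.3% and 55.9% (mean 56.1% ± 0.918), and *Cdh15* at 39.6%, 33.6% and 44.4%. Without cluster 28 the library 3 shares were 92.8% for *Pax7*, 88.9% for *Myf5*, 94.6% for *Chodl*, 61.7% for *Calcr* and 53.5% for *Cdh15*. These values describe the choice of cells and are no test of it. In CPM, satellite-gene cells held *Pax7* at 499, 437 and 612, *Myf5* at 700, 499 and 743, *Chodl* at 1220, 1066 and 1095, *Calcr* at 309, 280 and 300.5, and *Cdh15* at 91.6, 75.0 and 128. Without cluster 28 the library 3 levels of these genes were 730, 880, 1304, 353 and 153 CPM in the same order. The higher *Myf5*, *Calcr* and *Chodl* shares in other cells of library 3 lay largely in cluster 28, without which they were 0.536%, 0.284% and 1.38%. Of all UMIs of each gene in the kept cells, satellite-gene cells held 96.0% for *Myf5*, 95.8% for *Calcr*, 94.5% for *Cdh15*, 92.0% for *Chodl* and 81.1% for *Pax7*.

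**Figure D1:**
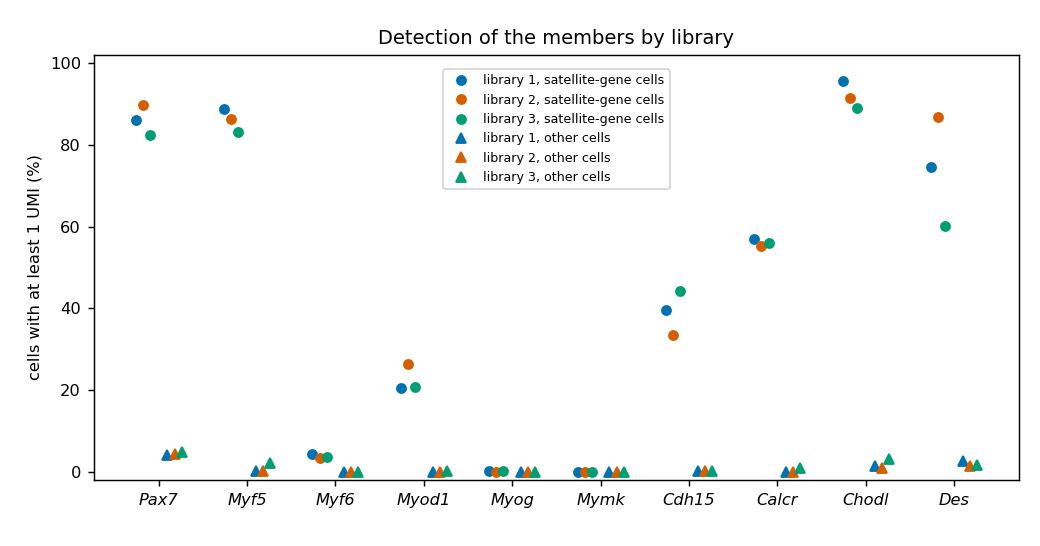
Percent of cells with at least 1 UMI of each of the 10 genes (vertical axis) in the 3 libraries, with circles for satellite-gene cells and triangles for other cells. In satellite-gene cells *Pax7*, *Myf5* and *Chodl* sit between 82.3% and 95.6%, *Calcr* between 55.3% and 57.1%, *Myod1* between 20.5% and 26.4%, and *Myog* and *Mymk* at most at 0.345%.

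Cells just inside the threshold of 2 genes held *Des* and *Myod1* more often than cells just outside it. Cells with exactly 1 selection gene numbered 788, 397 and 2687 and held *Des* in 6.09%, 7.81% and 4.61% and *Myod1* in 0.635%, 1.26% and 0.558%. Cells with exactly 2 numbered 137, 126 and 400 and held *Des* in 50.4%, 75.4% and 14.8% and *Myod1* in 18.2%, 26.2% and 6.75%, with the lowest values in library 3, which holds cluster 28. With exactly 3 genes *Des* was found in 66.7%, 89.4% and 56.4% and *Myod1* in 24.6%, 29.5% and 21.8%, so in library 3 the larger step lay between 2 and 3 genes. With 4 and 5 genes *Myod1* followed no common order, at 18.75%, 23.8% and 28.9% and at 19.9%, 26.3% and 25.1%, while *Des* was at 80.2%, 86.1% and 79.1% and at 90.7%, 92.8% and 88.5%. The most frequent combination was all 5 genes together, in 758 cells (24.3%), followed by *Pax7*, *Myf5*, *Chodl* and *Calcr* in 584 (18.7%) and *Pax7*, *Myf5* and *Chodl* in 469 (15.0%).

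Most satellite-gene cells with *Myod1* also held *Pax7*, which 86.02% of all satellite-gene cells hold because it helped to choose them. Of cells with *Myod1*, 91.3% ± 2.01 also held *Pax7*, 88.5% ± 3.98 *Myf5*, 45.8% ± 11.2 *Cdh15* and 51.9% ± 2.71 *Calcr* (SD, n = 3). Of cells with *Pax7*, 86.5% ± 2.04 held *Myf5*, 58.1% ± 2.12 *Calcr* and 23.9% ± 2.63 *Myod1*. The 39, 27 and 57 cells with *Myf6* held *Calcr* in 79.2% ± 6.52 and *Myod1* in 15.4% ± 3.12. Shares of both *Myf6* and *Calcr* move with depth, and in library 3 *Myf6* was found in 1.49% of cells of 1000 to 2000 UMIs and in 10.97% of cells of 10000 to 20000, and *Calcr* in 44.8% and 74.8%. The rule itself raises the co-detection of the selection genes, and over all kept cells, where no rule applies, 52.6% ± 8.31 of *Pax7* cells held *Myf5* and 83.4% ± 3.12 of *Myod1* cells held *Pax7*.

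Of the 5 members that did not choose the cells, *Des*, *Myod1* and *Myf6* were higher in satellite-gene cells, while *Myog* and *Mymk* were found in few cells. *Des* had a UMI in 74.6%, 86.6% and 60.3% of satellite-gene cells at 376, 578 and 374 CPM, against 2.83%, 1.43% and 1.66% of other cells at 4.78, 2.52 and 2.04 CPM. *Myod1* was found in 20.5%, 26.4% and 20.7% at 63.8, 59.3 and 82.4 CPM, against 0.0971%, 0.186% and 0.265% at 0.290, 0.135 and 0.239 CPM. *Myf6* was found in 4.49%, 3.605% and 3.79% at 6.72, 5.63 and 7.36 CPM, and in other cells at 0.0066, 0.0097 and 0.0281 CPM, which is 10 UMIs over all 3 libraries. Without cluster 28 the library 3 shares were 74.5% for *Des*, 25.4% for *Myod1* and 4.74% for *Myf6*, at 454, 99.5 and 8.95 CPM. Each of these 3 genes was higher in satellite-gene cells in every library. Across 18743 genes tested on summed counts, leaving out the selection genes, edgeR's quasi-likelihood test with Benjamini-Hochberg adjustment called 38% of genes, 17.7% higher and 20.3% lower in satellite-gene cells, so a call by itself is common here. *Des* was higher by a log2 fold change of 7.19 ± 0.469 (SE, adjusted p = 0.00046651), *Myod1* by 8.26 ± 0.311 (adjusted p = 9.4051e-05) and *Myf6* by 8.52 ± 0.572 (adjusted p = 0.00049233). *Myf6* passed the filter on low counts through the summed counts of satellite-gene cells alone. Its difference and call thus rest on a level near 0 in other cells, and with no filter the difference was 8.44. *Des*, *Myod1* and *Myf6* were all called without each library in turn, although the count of called genes was 1289 without library 1, 1586 without library 2 and 6192 without library 3, against 7127. With every cell thinned to 2000 UMIs they stayed higher, by 5.29 for *Des*, 5.45 for *Myod1* and 6.48 for *Myf6*, which are smaller differences. The rule was applied anew to the thinned counts. Of 810, 730 and 1438 satellite-gene cells deep enough, 672, 541 and 1094 still met it, and the rest counted as other cells. Depth and the choice of cells thus changed together.

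*Myog*, the factor of terminal differentiation, had a UMI in 3, 1 and 3 satellite-gene cells, and *Mymk*, the fusion protein myomaker, in 1, 0 and 1. For *Mymk* in library 2, 0 of 749 cells allows a share of cells with a UMI of up to 0.401%. *Myog* summed to 11.9, 0.304 and 0.715 CPM, so library 1 decides its level, and its difference from other cells was 3.23 ± 2.19 on the log2 scale (edgeR, adjusted p = 0.278). With the library as a block the difference was 4.35 ± 0.953 (edgeR, adjusted p = 0.0286), and with at least 3 selection genes required it was 0.22 ± 1.99. In the cells of the Muscle satellite-like clusters in place of the rule it was 9.90 ± 2.24. That value is a description, since the clusters were made from the counts of these same cells. It takes in 1 cell of library 1, outside the rule, with 204 *Myog* UMIs. Without library 1 the gene had too few UMIs to be tested. *Mymk* had too few UMIs to be tested with all 3 libraries and the filter on low counts, and with no filter it was at 3.23 (edgeR, adjusted p = 0.263). Only 28.6% of *Myog* UMIs and 30% of *Mymk* UMIs lay in satellite-gene cells.

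The cells with *Myog* or *Mymk* were followed one by one. There were 24 in all kept cells, 10 of them in the Muscle satellite-like clusters, and of the 14 elsewhere 13 held a single UMI. Of the 304 *Myog* UMIs, 268 came from 2 cells of high depth. The first, with 24627 UMIs, held 204 of *Myog*, 29 of *Mymk* and 29 of *Myod1* and none of *Pax7*, *Myf5*, *Calcr* or *Chodl*, so it is outside the rule. The second, with 25293 UMIs, held 64 of *Myog*, 14 of *Mymk*, 7 of *Myod1* and 20 of *Des*. Among the 10 cells in the Muscle satellite-like clusters *Myod1* was found in 9, *Des* in 8, *Chodl* in 7, *Cdh15* in 6, *Myf5* in 4, *Pax7* in 3 and *Calcr* in 2, and 3 of the 10 held fewer than 2 selection genes. These are counts of few cells and carry no test. Over all barcodes, with no limit applied, 23 held *Myog*, of which 2 were beyond the quality limits and 3 were removed as doublets.

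Outside the members, the 5 largest rises among genes with a mean of at least 10 CPM were *Ankrd1*, a stress-responsive muscle ankyrin protein, by 8.69 ± 0.714, *Fgfr4*, a fibroblast growth factor receptor of satellite cells, by 8.66, *Nctc1*, a noncoding transcript, by 8.66, *Mylk2*, the skeletal muscle myosin light chain kinase, by 8.55, and *Fitm1*, a lipid droplet protein of muscle, by 8.46. *Fgfr4* stood at 530, 636 and 532 CPM in satellite-gene cells. The 5 largest falls were *Pi16* by −4.93, *Ctss* by −4.59, *H2-Ab1* by −4.49, *Clec3b* by −4.43 and *Penk* by −4.42. *Pi16* and *Clec3b* are known from fibroblasts and *Ctss* and *H2-Ab1* from antigen-presenting cells, and *Ctss* was not called with the library as a block (adjusted p = 0.0872). Basal epithelial *Krt5* was not at 0 in satellite-gene cells, at 50.1, 38.04 and 395 CPM against 712, 781 and 1610 in other cells, and the 6 genes of the epithelial background list, all detected, summed to 196, 99.96 and 974 CPM against 2149, 2263 and 3603. Without cluster 28 the library 3 values in satellite-gene cells were 183 CPM for *Krt5* and 434 CPM for that list. The 8 genes of the pericyte or smooth muscle list, all detected and led by *Acta2*, were at 628, 443 and 710 CPM against 156, 72.6 and 46.4, and the 6 fibroblast genes at 2393, 2949 and 1375 CPM against 2992, 864 and 1499.9. The part of these signals in the differences was not tested.

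Of 31 tested genes known from satellite cell quiescence and niche signalling, 20 were higher and 1, the receptor *Met*, was lower, by −0.69, with a list median of 1.67 on the log2 scale against −0.07 over all genes, and with the block 21 were higher. The largest were *Fgfr4*, the helix-loop-helix repressor *Msc* at 6.65, the Notch target *Heyl* at 6.16 and the Notch-linked receptor *Megf10* at 6.13. Of the Notch receptors, *Notch3* rose by 3.50 and *Notch2* by 1.48, while *Notch1*, at −0.38, was not called, and of the targets *Hey1* rose by 2.14 while *Hes1* stood at −0.02, not called. The laminin receptor chain *Itga7* (5.61), the chemokine receptor *Cxcr4* (5.24), *Pax3* (5.24), the adhesion protein *Vcam1* (4.10), the growth factor antagonist *Spry1* (2.99) and the cell cycle inhibitor *Cdkn1b* (0.91) were also higher. These lists were drawn up with earlier results of these data known, so their counts are descriptions.

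Genes of division were not raised as a group against other cells. Of 15 S phase genes tested, 1, *Mcm7*, a helicase subunit, was higher by 0.98 ± 0.14 (edgeR, adjusted p = 0.00505), and of 16 genes of G2 and mitosis edgeR called 0, with a median of −0.67. With the block 1 S phase gene, *Gins2*, was lower as well. *Mki67*, the proliferation antigen, stood at 1.68, 9.43 and 12.7 CPM in satellite-gene cells and 13.6, 5.86 and 31.7 CPM in other cells, so its order differed between libraries. The cycling list summed to 10.1, 29.1 and 59.6 CPM in satellite-gene cells against 43.2, 21.2 and 113 CPM in other cells. Without cluster 28, which had 5 of the 6 genes of this list raised, the library 3 sum in satellite-gene cells was 17.4 CPM. Other cells took in most of cluster 28 and the Cycling-like cluster 2, in which 1 of 759 cells was a satellite-gene cell. The part of these clusters in the comparison was not tested. Of 22 genes of the dissociation response, *Jund* rose by 1.74 ± 0.45 (adjusted p = 0.0263) and *Myc* by 1.06 (adjusted p = 0.0378), and 20 were not called, or 19 with the block. The median of this list was 1.72, and 0.87 with the block, against −0.07 over all genes in both fits. In library 2 these genes stood far above the other libraries, as for *Fos* above, with *Egr1* at 147, 2249 and 152 CPM and *Jun* at 422, 2820 and 399 CPM in libraries 1, 2 and 3.

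Structural genes of muscle were higher too, at levels that differ greatly between genes. Of 22 tested genes of early differentiation, 13 were higher and 3 lower, or 2 lower with the block, with a median of 2.11. The leading ones were *Jsrp1*, a junctional protein of the sarcoplasmic reticulum, by 8.36, *Rapsn*, which clusters acetylcholine receptors, by 7.40, and *Tnnt1*, slow troponin T, by 7.08, and the receptor chain *Chrna1* rose by 6.71. *Tnni1*, slow troponin I, was among the 3 lower genes, with no UMI in the satellite-gene cells of any library. All 14 tested genes of the mature fibre were higher, with a median of 4.66, among them *Actn3* by 7.77, *Pvalb* by 6.74, *Myh4* by 6.05 and *Myh1* by 5.40, and *Mb* lost its call with the library as a block (adjusted p = 0.0519). Their levels were low, with *Actn3* at 26.9, 27.8 and 31.2 CPM and the actin *Acta1* at 19.4, 41.7 and 11.2 CPM, and the 10 genes of the myofibre marker list, all detected, summed to 75.1, 171 and 49.98 CPM against 5.61, 6.57 and 2.73 in other cells. Whether these UMIs were made in the satellite-gene cells or came from fibre RNA in the suspension was not tested.

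**Figure D2:**
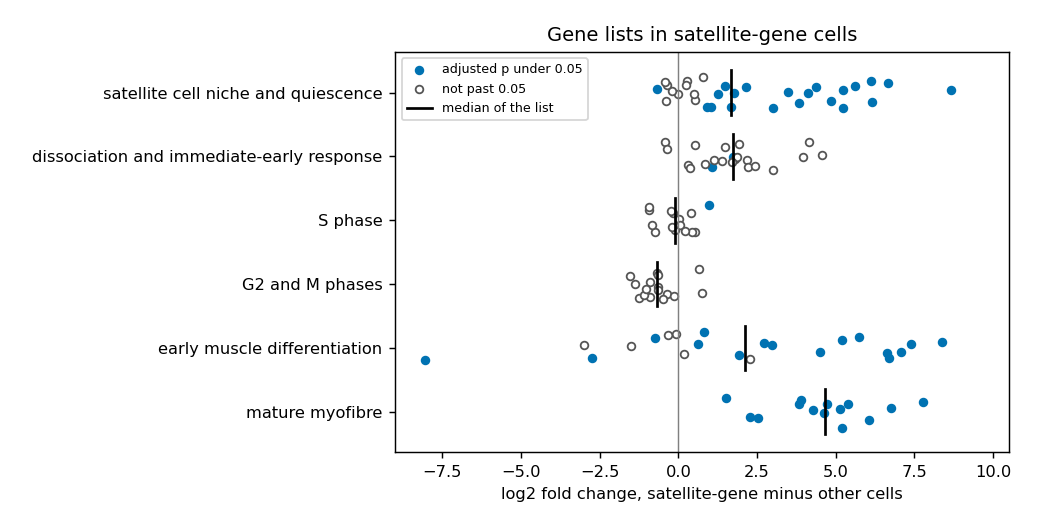
Log2 fold change of satellite-gene against other cells (horizontal axis) for each tested gene of 6 gene lists, with filled points for adjusted p under 0.05 and a bar at each list's median. The mature fibre list is filled throughout with a median of 4.66, the early differentiation and quiescence lists have medians of 2.11 and 1.67, and the G2 and mitosis list has no filled point.

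Ordered by *Myod1*, *Myog* and *Mymk*, most satellite-gene cells held no UMI of these 3 genes. Cells with no UMI of *Myod1*, *Myog* or *Mymk* were 691, 550 and 1192 (79.5%, 73.4% and 79.2%), cells with *Myod1* and neither of the later genes were 175, 198 and 309 (20.1%, 26.4% and 20.5%, mean 22.4% ± 3.53), and cells with *Myog* or *Mymk* were 3, 1 and 4 (mean 0.248% ± 0.107). Without cluster 28 the *Myod1* share was 23.9% ± 3.33. A share of cells with a UMI rises with depth, and between bins of 1000 to 2000 and 10000 to 20000 UMIs per cell the *Myod1* share went from 6.78% to 23.7% in library 1 and from 8.96% to 25.2% in library 3. Cells were therefore also thinned to 1 number of UMIs, leaving out shallower cells and choosing satellite-gene cells anew on the thinned counts. At 5000 UMIs, with 603, 614 and 973 satellite-gene cells, the share with *Myod1* and no later gene was 19.1% ± 1.34, and at 2000 UMIs, with 672, 541 and 1094 cells, it was 10.6% ± 1.62. *Myod1* at 2000 UMIs was found in 9.67%, 9.98% and 12.5% of satellite-gene cells and in 0.206%, 0.495% and 0.156% of other cells, so the gap between the groups is present at equal depth. The size of the share moved with thinning, in which depth and the choice of cells changed together. A cell without a *Myod1* UMI is therefore not shown to lack *Myod1*.

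**Figure D3:**
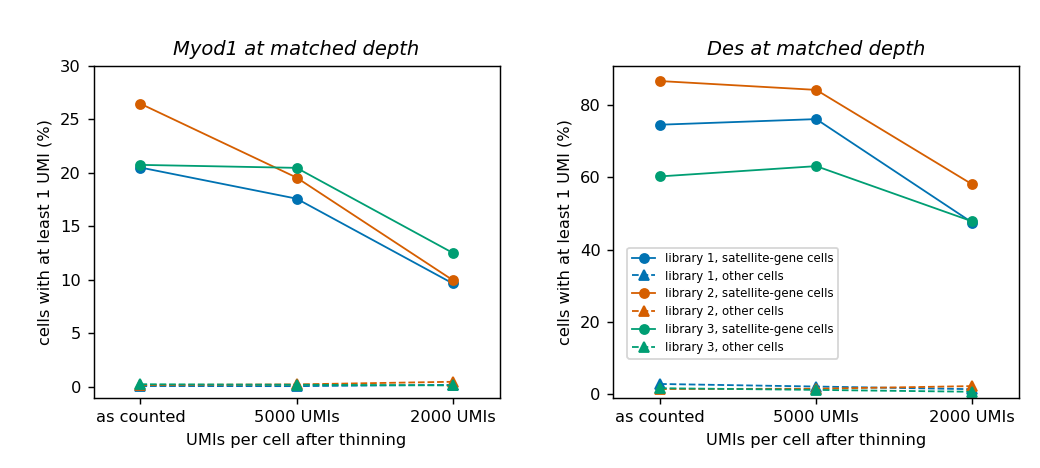
Percent of cells with a UMI of *Myod1* and of *Des* (vertical axis) at full depth and at 5000 and 2000 UMIs per cell (horizontal axis), per library, for satellite-gene and other cells. The mean *Myod1* share falls from 22.5% to 19.2% and 10.7% in satellite-gene cells, and in other cells *Myod1* stays at or below 0.495%.

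The cells with *Myod1* and those without it were alike in depth, with medians of 7848, 8695.5 and 6066 UMIs against 7353, 8549 and 5887, and close in the share with a *Lrig1* UMI, at 40%, 53.5% and 35.9% against 43.7%, 52.9% and 35.4%. *Calcr*, which guards quiescence, stood at 235, 226 and 276 CPM in *Myod1* cells and at 331, 301 and 307 CPM in cells without, lower in 3 of 3 libraries. Of the 12142 genes tested, edgeR without a block called 0 (0%) at an adjusted p of 0.05, with 490 at an unadjusted p under 0.05, and DESeq2 called 6, so no member was called, *Calcr* included (log2 difference −0.34 ± 0.131, unadjusted p = 0.034389, adjusted p = 0.99978). With the library as a block edgeR called 164 genes, or 1.35% of those tested, and *Calcr* was at −0.33 ± 0.0917 (adjusted p = 0.141). A fit with the block and without cluster 28 was chosen after seeing the data and called 343 genes. In it *Calcr* was lower by −0.42 ± 0.064 (edgeR, adjusted p = 0.0014713), and thinned to 2000 UMIs with the block it was at −0.34 (edgeR, adjusted p = 0.752). *Calcr*, *Pax7*, *Myf5*, *Chodl* and *Cdh15* helped to choose these cells, so their differences within the split are for cells that the rule took in by their detection.

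*Des* went the other way, at 449, 599 and 520 CPM in *Myod1* cells against 353, 570 and 334 CPM, a log2 difference of 0.33 ± 0.277 that was not called and that was 0.26 ± 0.0603 with the block and without cluster 28 (edgeR, adjusted p = 0.028136). At equal depth of 2000 UMIs with the block the *Des* difference was 0.01, and within cluster 8 it was −0.05, so its direction rests on the setting. *Myf6* stood at 4.28, 3.90 and 4.31 CPM against 7.43, 6.29 and 8.23 CPM, a difference of −0.79 ± 0.286 that was not called, from 6, 7 and 9 UMIs against 38, 30 and 63. *Pax7* (0.21 ± 0.188), *Cdh15* (0.28 ± 0.239), *Chodl* (0.13 ± 0.179) and *Myf5* (−0.05 ± 0.249) were not called. *Cdh15* was higher in *Myod1* cells in 3 of 3 libraries, at 101, 76.9 and 162 CPM against 87.9, 74.4 and 119, and the other 3 genes moved in both directions. *Pax7* for instance stood at 550, 430 and 753 CPM in *Myod1* cells and 489, 440 and 576 CPM in cells without. In library 3 the 1192 cells without include 296 of cluster 28, whose satellite-gene cells held *Pax7* at 71.8 CPM. *Krt5* moved with the split, at 24.3, 20.6 and 169 CPM in *Myod1* cells against 57.5, 44.6 and 458 CPM, and in library 3 the cells of cluster 28, of which 1.99% are *Myod1* cells, held 2392 of the 3862 *Krt5* UMIs. The 6 fibroblast genes summed to 1546, 2744 and 828 CPM against 2639, 3030 and 1528, lower in 3 of 3 libraries, and the 7 secretory genes to 7141, 668 and 728 CPM against 9131, 614 and 4940. The part of these signals in the differences was not tested.

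**Figure D4:**
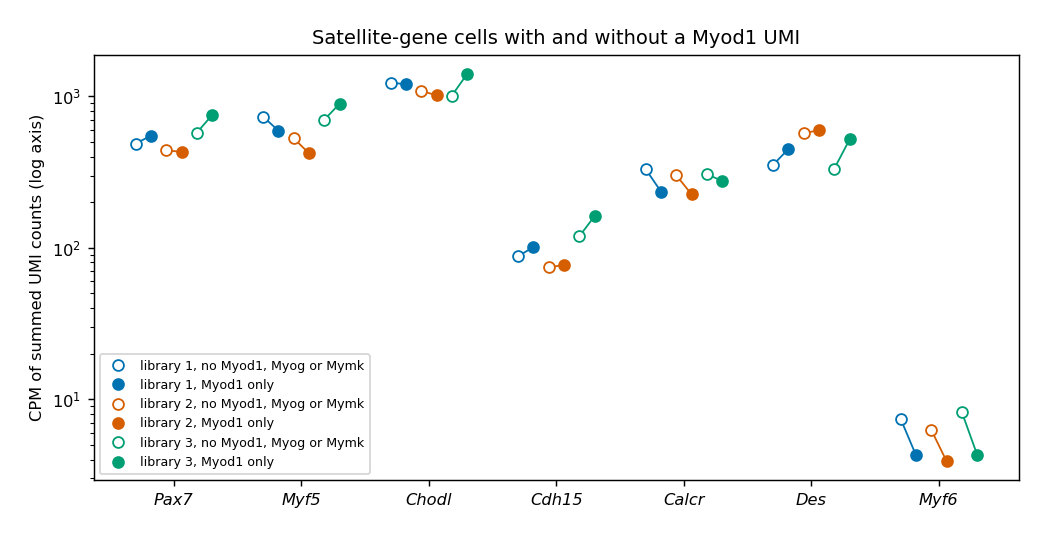
CPM on a log axis for 7 members in satellite-gene cells without *Myod1*, *Myog* or *Mymk* (open points) and with *Myod1* only (filled points), with a line joining the pair of each library. *Calcr* lies lower in the *Myod1* cells of every library, at 235, 226 and 276 against 331, 301 and 307, while *Pax7*, *Myf5* and *Chodl* move in both directions.

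With the library as a block, 23 genes (0.189%) were higher and 141 (1.16%) lower in *Myod1* cells, and without cluster 28 as well 104 were higher and 239 lower. The 5 largest rises were *Lincmd1*, a long noncoding transcript of muscle differentiation, by 2.42 ± 0.302 (edgeR, adjusted p = 0.0105), the secreted calcium-binding protein *Smoc1* by 1.25, *Capn6* by 1.14, *Lix1* by 1.10 and the sarcoglycan *Sgca* by 1.03. *Lincmd1* stood at 18.6, 11.2 and 30.1 CPM in *Myod1* cells and 4.30, 2.72 and 4.05 CPM in cells without. The 5 largest falls were *Gdpd2* by −3.14, *Rgs6* by −3.00, *Ccdc153* by −2.85, *Tspan8* by −2.70 and *C3* by −2.66. *Ccdc153* is a leading gene of the Ciliated-like cluster 25. The ciliated list summed to 92.7, 67.5 and 133 CPM in *Myod1* cells against 129, 111 and 182, and the basal list to 644, 535 and 1116 against 850, 646 and 3315. The pericyte or smooth muscle list went the other way, at 704, 451 and 943 against 584, 440 and 643. The part of these signals in the falls was not tested. Of 16 tested genes of early differentiation 3 rose in this fit, *Sgca*, *Chrna1* by 0.99 (adjusted p = 0.0112) and *Jsrp1* by 0.90 (adjusted p = 0.0144), and 0 without the block. The 30 tested quiescence and niche genes and the 11 of the mature fibre gave 0 calls in either fit, with medians of 0.12 and 0.33 without the block. Thinned to 2000 UMIs with the block, 12 genes were called in all.

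The Muscle satellite-like clusters 8 and 9 held the members at different levels, which is a description since the clustering used these genes. Cluster 8 had 500, 189 and 1106 satellite-gene cells and cluster 9 had 328, 552 and 53, so library 2 lies mostly in cluster 9 and library 3 mostly in cluster 8. *Pax7* stood at 658, 678 and 807 CPM in cluster 8 and 343, 360 and 542 CPM in cluster 9, *Myf5* at 913, 829 and 983 against 487, 391 and 524, and *Cdh15* at 134, 161 and 172 against 42.0, 43.9 and 50.6. *Calcr* followed the same order, at 365, 468 and 386 CPM against 253, 216 and 242. So did *Myf6*, at 10.0, 11.9 and 10.3 CPM against 2.54, 3.45 and 0, the last from 53 cells. *Chodl* did not in library 3, at 1442, 1598 and 1420 CPM against 1099, 900 and 1669. *Des* did not either, at 404, 562 and 501 CPM against 402, 604 and 419, nor did *Myod1*, at 74.5, 43.2 and 108 against 58.5, 67.6 and 145. Cluster 9 had *Fosb*, a gene of the dissociation response, and *Trim63*, a ubiquitin ligase of muscle, among its 10 leading genes. The share with *Myod1* and no later gene was 20%, 22.2% and 26.2% in cluster 8 and 22.0%, 28.3% and 22.6% in cluster 9.

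Outside satellite-gene cells, *Pax7* was the member found in the largest share of cells in each library. Other cells with *Pax7* numbered 1918, of which 71.7% held a single UMI. In library 3 they numbered 1129, or 940 without cluster 28, so not all lay in the 4 clusters named next. The share of cells with *Pax7* was raised in cluster 11 with 14.4%, 19.8% and 21.8% of cells, the Secretory-like cluster 16 with 18.5%, 21.6% and 13.4%, cluster 13 with 14.8%, 14.1% and 15.6%, and cluster 14 at 12.1%, 11.9% and 9.08%. Cluster 11 was left unnamed, with *Cntn5*, *Ntng1* and *Fhod3* as its leading genes, and held *Pax7* at 29.0 ± 6.87 CPM. In these clusters *Chodl* was found in at most 1.27% of cells and *Des* in at most 0.685%, far below their shares in satellite-gene cells. *Des* was found in 816 other cells, 512 of them with a single UMI. Its share was high in the Pericyte or smooth muscle-like cluster 26, with 78.4% of 74 cells of library 1 at 283 CPM, and lower in the Fibroblast-like cluster 12, with 19.5%, 24% and 25.04%. Another 148 of these cells lay in cluster 28, where *Des* was found in 4.13% of the other cells of library 3. Cluster 12 also held *Chodl* in 7.05%, 10.7% and 17.4% of cells and *Pax7* in 0.348%, 0% and 0.173%.

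*Lrig1*, the gene whose locus drives the Cre, was detected in satellite-gene cells at 88.2, 103 and 82.1 CPM. It had a UMI in 42.8%, 53.0% and 35.5% of them (mean 43.8% ± 8.80) and in 40.7%, 57.5% and 51.2% of other cells (49.8% ± 8.51). Within satellite-gene cells, those with a *Lrig1* UMI and those without were compared to ask whether the members differ with it. Of 12400 genes, edgeR called 0 (0%) with and without the block, with 948 and 76 at an unadjusted p under 0.05, and DESeq2 called 0. *Myod1* stood at 47.8, 56.9 and 72.9 CPM in *Lrig1*+ cells and 78.7, 62.4 and 89.4 CPM in *Lrig1*- cells, lower in 3 of 3 libraries, with a log2 difference of −0.39 ± 0.155 (adjusted p = 0.99991). Its share of cells hardly moved, at 18.8%, 26.7% and 20.8% against 21.7%, 26.1% and 20.7%. *Calcr* stood at 347, 304 and 307 CPM against 273, 251 and 295, higher in 3 of 3 libraries, by 0.22 ± 0.131. *Des* (−0.18 ± 0.32), *Cdh15* (−0.18), *Pax7* (−0.01), *Myf5* (−0.07), *Myf6* (0.02) and *Chodl* (−0.03) were not called. Of these, *Des*, *Cdh15* and *Myf5* were also lower in 3 of 3 libraries, while *Pax7*, *Myf6* and *Chodl* moved in both directions. *Des* stood at 339, 556 and 350 CPM against 410, 605 and 392, and with the block its difference was −0.19 ± 0.0504 (edgeR, adjusted p = 0.430). *Lrig1*+ cells were deeper, at medians of 8118, 8880 and 6412 UMIs against 6847, 8329 and 5708. *Myog* was found in 0 of 372, 397 and 534 *Lrig1*+ cells, which allows shares of cells with a UMI of up to 0.806%, 0.756% and 0.562%, and its 7 satellite-gene cells had no *Lrig1* UMI. *Mymk* was found in 1 *Lrig1*+ cell of library 3 and 1 *Lrig1*- cell of library 1.

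Over all kept cells, the members were lower in *Lrig1*+ cells in CPM, but the direction turned for most of them with cells thinned and *Lrig1* status called anew. Without the block edgeR called 0 of 19625 genes (0%), with 2299 at an unadjusted p under 0.05, and DESeq2 called 565, among them *Myod1* (adjusted p = 0.0037), *Cdh15* (adjusted p = 0.0075) and *Myf5* (adjusted p = 0.0061), all lower. With edgeR and the library as a block, which called 4053 genes or 20.7%, 9.19% higher and 11.5% lower, 6 of 8 tested members were lower. They were *Myod1* by −1.22 ± 0.154 (edgeR, adjusted p = 0.0146), *Des* by −1.03 ± 0.0811 (adjusted p = 0.0073), *Cdh15* by −0.95, *Myf5* by −0.84, *Chodl* by −0.80 and *Pax7* by −0.57 ± 0.0989 (adjusted p = 0.0249), while *Calcr* (−0.56) and *Myf6* (−0.74) were not called. *Myog* was found in 4, 0 and 0 *Lrig1*+ cells and 8, 1 and 5 *Lrig1*- cells, and *Mymk* in 2, 0 and 1 against 3, 0 and 2. *Pax7* for instance stood at 22.7, 25.7 and 20.2 CPM in *Lrig1*+ cells and 28.2, 40.7 and 35.4 CPM in *Lrig1*- cells. Satellite-gene cells were 6.90%, 9.66% and 4.41% of *Lrig1*+ cells and 6.35%, 11.4% and 8.08% of *Lrig1*- cells. The part of cell numbers, RNA per cell and the depth of the other cells in these sums was not tested. *Lrig1*+ cells had 15068, 17801.5 and 14556 UMIs at the median and *Lrig1*- cells 7304, 9732 and 6399. Thinning to 2000 UMIs also redraws the groups, since fewer cells keep a *Lrig1* UMI. The *Lrig1*+ cells went from 5395, 4108 and 12109 to 1448, 1045 and 3453, so depth and the choice of cells changed together. In that fit with the block, *Pax7* was higher in *Lrig1*+ cells, by 0.43 ± 0.104 (edgeR, adjusted p = 0.0117), *Chodl* was at 0.37 (adjusted p = 0.0559), and *Myod1* (−0.07) and *Des* (−0.03) were near 0, so none of the lower calls was left, and under quality limits as the study's methods word them, which keep cells of low depth, *Pax7* was at 0.75 without the block.

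**Figure D5:**
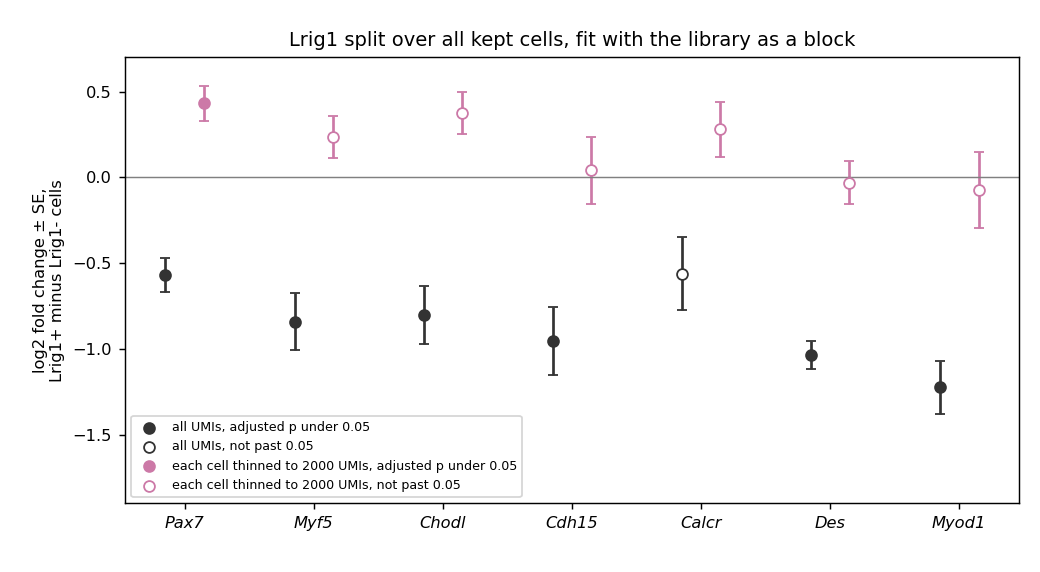
Log2 difference between *Lrig1*+ and *Lrig1*- cells over all cells (vertical axis, with SE) for 7 members in the fit with the library as a block, with all UMIs and with each cell thinned to 2000 UMIs, where filled points have an adjusted p under 0.05. *Pax7* moves from −0.57 to 0.43 and *Des* from −1.03 to −0.03.

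Genes outside the members with the most similar pattern were sought over 77 sums of clusters and libraries from 29 clusters, by Pearson's r of log2(CPM + 1), which is a description since the sums share libraries and depth. For *Myod1* they were *Pitx3* (r = 0.99), *Taf7l* (0.982), *Vgll2* (0.981) and *Jsrp1* (0.981). For *Des* they began with *Rcan2* (0.935), *Sox8* (0.921) and *Shox2* (0.919). For *Pax7*, which also had UMIs in clusters 11, 13, 14 and 16, r was lower, with *Jsrp1* at 0.811, *Nctc1* at 0.810, *Pitx3* at 0.808 and *Commd10* at 0.807. For *Myog*, which rests on few cells, the first was *Lincmd1* at 0.724.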

How the data were processed

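Single-cell 3′ libraries (Chromium GEM-X v4) of tdTomato-sorted larynx cells were analysed in 3 libraries of 1 group. The values are raw UMI counts per gene and barcode as the authors deposited them, in filtered matrices made with Cell Ranger 8.0.1 on mm39 per the submitters' processing notes, with no normalization or pooling of libraries. A barcode passed if it held 500 to 8000 detected genes and 1000 to 40000 UMIs, with mitochondrial genes taking 8% of them at most, and 1030, 326 and 3495 were removed as doublets by a score against simulated doublets (0.4% per 1000 barcodes). The study's methods give these 2 ranges the other way round, with 500 to 8000 for UMIs and 1000 to 40000 for genes. They were exchanged here, and the limits as worded are an alternative. Cells were clustered with scanpy 1.11.5 (2000 variable genes, 15 components, 15 neighbours, Leiden resolution 1, no integration). Clusters were named from fixed marker lists. A cluster with over 99% of its cells from 1 library was left unnamed.

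UMI counts were summed per library and cell group (at least 20 cells) and tested with edgeR 4.0.16 (TMM, filterByExpr, quasi-likelihood, Benjamini-Hochberg, threshold 0.05), with DESeq2 1.42.0 as an alternative. CPM is the gene's share of the UMIs of the summed group, in parts per 1000000. ± is the SD over 3 libraries for shares and levels and the SE for log2 differences. A count of 0 allows up to 3 counts, for counting error only. Genes that defined a comparison were left out of it. The selection genes were therefore left out against other cells but kept in the splits of satellite-gene cells, which they had helped to choose. The cell groups of 1 library share their 10 larynges, so the library pairs their sums. Deviations from the group means correlated within libraries at 0.245 to 0.339 for satellite-gene against other cells, 0.278 to 0.621 for the *Myod1* split, 0.435 to 0.830 for the *Lrig1* split of satellite-gene cells and 0.686 to 0.758 over all cells, and the fit with the library as a block is given where it changes a call of a member or a list's count between satellite-gene and other cells or in the *Myod1* split. The code was tested on simulated counts.

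Alternatives were other size factors, no filter, DESeq2, the block, each library left out, 3 selection genes, thinning, no doublet removal, other quality limits and clusters in place of the rule. Those without cluster 28, within single clusters and combined with the block were chosen after seeing the data. The members and lists were chosen with earlier results of these data known. Every member is named in every comparison, with 2 to 4 genes of the main lists and, outside the members, the 5 largest called rises and falls among genes that average 10 CPM or more and move 1 way in each library. Other genes named were chosen after their values were seen. Items withheld from this text are not reported here.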

Additional observations from a re-analysis of the deposited data

How the results depend on the processing

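Against other cells, *Des*, *Myod1* and *Myf6* were higher and called under every alternative that tested them. *Myf6* passed the filter on low counts through the satellite-gene cells alone. The clusters in place of the rule are a description only, since they were made from the counts of these same cells. The count of called genes was 7127. It was 8914 with DESeq2, 9175 with 3 selection genes, 9449 with the clusters in place of the rule and 8558 without cluster 28. It ran from 1289 to 6192 with a library left out and was 4220 with the quality limits as the methods word them. Those limits also raised the satellite-gene share of cells to 14.5%. In the *Myod1* split the count of 0 became 6 with DESeq2, 164 with the replicate block, 12 with the block and thinning to 2000 UMIs, 343 with the block and without cluster 28, 2 in cluster 8 alone and 0 to 2 with a library left out. In the *Lrig1* split of satellite-gene cells it became 6 with the block and thinning. Over all cells it became 565 with DESeq2, 4053 with the block, 2136 with the block and thinning and 4252 with the block and without cluster 28. Thinning to 2000 UMIs took the share with *Myod1* and no later gene to 10.6% and the share with *Myog* or *Mymk* to 0.130%. For the differences in which a member changed sign without being called, the cause was not tested.

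In the *Myod1* split the log2 difference changed sign as follows. With a library left out *Myf5* ran from −0.30 to 0.089 and *Chodl* from −0.040 to 0.21. *Chodl* was at −0.040 with 3 selection genes. In the Muscle satellite-like clusters *Pax7* was at −0.017 and *Chodl* at −0.060, and in their satellite-gene cells at −0.025 and −0.079. Thinned, *Des* was at −0.033. In cluster 8 *Des* was at −0.051 and *Chodl* at −0.092, and in cluster 9 *Pax7* was at −0.11 and *Chodl* at −0.24.

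In the *Lrig1* split of satellite-gene cells, with a library left out *Pax7* ran from −0.085 to 0.070, *Myf6* from −0.14 to 0.16 and *Chodl* from −0.078 to 0.020. With 3 selection genes *Pax7* was at 0.015, *Myf6* at −0.035 and *Chodl* at 0.016. In the Muscle satellite-like clusters *Pax7* was at 0.090, *Myf5* at 0.015 and *Chodl* at 0.057, and in their satellite-gene cells *Pax7* was at 0.059 and *Chodl* at 0.027. Thinned, *Pax7* was at 0.18 and *Chodl* at 0.13, and with the block too *Pax7* was at 0.17, *Calcr* at −0.026 and *Chodl* at 0.13. With the methods' quality limits *Pax7* was at 0.10, *Myod1* at 0.033, *Myf5* at 0.0073 and *Chodl* at 0.14. *Myf6* was at −0.20 with no doublet removal, −0.071 without cluster 28 and −0.046 with the block as well.

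Over all cells, thinning took *Des* to 0.069, *Pax7* to 0.47, *Calcr* to 0.41, *Cdh15* to 0.0077, *Myf5* to 0.29 and *Chodl* to 0.43, and with the block *Pax7* to 0.43, *Calcr* to 0.28, *Cdh15* to 0.042, *Myf5* to 0.23 and *Chodl* to 0.37. The methods' quality limits took *Des* to 0.54, *Pax7* to 0.75, *Calcr* to 1.09, *Myod1* to 0.73, *Cdh15* to 0.37, *Myf5* to 0.66 and *Chodl* to 0.87. Among the members the replicate block changed the call of *Myog* against other cells and of 6 members over all cells, and without cluster 28 also those of *Calcr* and *Des* in the *Myod1* split. DESeq2 without the block called *Myod1*, *Cdh15* and *Myf5* over all cells. With the cells of the Muscle satellite-like clusters in place of the rule *Myog* was at 9.90, which is a description and no test. Depth limits all shares of cells with a UMI, and *Myog* and *Mymk* rest on too few cells for any order among them.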
